A study of Mus musculus with 6 samples.

Results

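Retinoic acid (RA), a vitamin A derivative, acts on genes through nuclear receptors, and 9 mouse genes of this response were described here: the receptor genes Rara, Rarb, Rarg and Rxra, the corepressor gene Nrip1, and the known induced targets Stra8, Tgm2, Meis1 and Meis2. They were taken as every probe set whose annotated gene symbol is one of these names, which gave 27 of 45101 probe sets and all 9 of these genes, of 18193 genes with a probe set of their own. Expression was measured on Affymetrix arrays in embryoid bodies, the rounded aggregates in which embryonic stem cells differentiate in suspension. All 6 samples were bodies of the mouse D3 embryonic stem cell line at day 10, cultured under rotation without LIF, the factor that keeps stem cells undifferentiated, and all held gelatin-coated microspheres. In the 3 control samples the microspheres carried a red cell-tracking dye, and in the 3 RA samples they carried RA. The labels give no RA dose, mention several microsphere to cell ratios and rotary speeds without assigning them to samples, and do not say that the triplicates were separate cultures, so the p-values may reflect technical spread alone.

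RA receptors (RARs) pair with retinoid X receptors (RXRs) on DNA, typically on direct repeats of a short half-site. Without ligand the pair recruits corepressors, and with RA bound it recruits coactivators and the target gene is transcribed. The Rarb promoter is the textbook target with such a repeat, so the gene for one RA receptor is itself switched on by RA in many embryonic cells. The RA-clearing enzyme gene Cyp26a1 is another target of this kind.

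The promoters of Rarb and Cyp26a1 are shown because both hold the repeat with 5 spacer bases (called DR5) and because the RNAs of these genes moved in opposite directions, and Stra8 is shown as a fallen target whose half-sites are not arranged in this way. The sequences are those of RefSeq on GRCm38.p6, on the strand of the gene, and end at the last base before the annotated start. Capitals mark the half-sites of the DR5 in Rarb and Cyp26a1 and all half-sites in Stra8. They lie at chr14:16575477-16575566 (minus strand), chr19:37697718-37697807 (plus strand) and chr6:34920748-34920947 (plus strand).
Rarb: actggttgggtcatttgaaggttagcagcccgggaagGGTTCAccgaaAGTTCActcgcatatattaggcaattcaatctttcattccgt
Cyp26a1: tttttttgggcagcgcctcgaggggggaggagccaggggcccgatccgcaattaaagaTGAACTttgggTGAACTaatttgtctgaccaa
Stra8: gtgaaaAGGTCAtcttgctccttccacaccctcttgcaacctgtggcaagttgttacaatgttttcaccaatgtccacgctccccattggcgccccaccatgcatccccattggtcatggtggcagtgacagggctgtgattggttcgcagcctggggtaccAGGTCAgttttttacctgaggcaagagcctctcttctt

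The half-site searched on both strands was AGGTCA, together with its spelling that starts with a G instead (GGGTCA), its spelling with a pair of T in the middle (AGTTCA) and the spelling that has both of these changes (GGTTCA). Windows ran from 250 bases before to 50 bases after each annotated start, and a DR5 was found in 0.0974% of 32851 such windows and in 0.115% of 27025 genes. Of the members, 8 had a window (Tgm2 had none), and among these the DR5 was found in Rarb alone, 53 to 37 bases before the start. In Cyp26a1, which is no member, it lay 32 to 16 bases before the start on the opposite strand. Repeats with 1 or 2 spacer bases occurred in 0.222% and 0.268% of all windows and in none of the members' windows. Single half-sites were common, in 43.7% of all windows. The windows of Meis1 and Meis2 held no half-site, which says only that these letters are not in those windows.

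Before the results, 2 arrays are to be named. On RA array 1 the 3-prime Gapdh probe set read 34.0 times the 5-prime one, a measure of how intact the RNA is, while the other 5 arrays had 3.06 to 4.74. Control array 3 was the dimmest, with a median deposited signal of 41.4 against 54.8 to 65.5.

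Of the 9 members, the RNAs of Rarb, Stra8, Tgm2, Meis1 and Meis2 were lower in bodies with RA microspheres, and no member was higher. Meis2 was 4.76 times lower, Meis1 3.36 times and Tgm2 2.99 times. Rarb was 6.81 and Stra8 4.42 times lower on the scale with a pseudocount of 16, but all their RA arrays lay under the signal filter, so these sizes depend on the pseudocount and are not ranked against the others. Rarb and Stra8 also entered the test only because their controls raised the mean over the 6 arrays above the filter. Without the filter both still passed (limma adjusted p = 9.33e-05 and 0.000718). The other receptor genes and Nrip1 did not pass the test. At an unadjusted limma p under 0.05, 0 members were higher and 6 lower, the added member being Rxra. No share over all genes is given at that threshold, so this count cannot be set against all genes and is not read further. These values are from a limma fit over 13608 genes, each read by its brightest probe set, with Benjamini-Hochberg adjusted p under 0.05 as the threshold. Lower calls made up 15.6% of all genes tested, higher calls 14.3%, and both together 30.0%. On the brightest probe set, the RA arrays all lay below the control arrays in 7 of the 9 members and the groups overlapped in the other 2. Over all genes tested, 22.2% had all RA arrays below all control arrays. Levels below are quantile-normalized log2(intensity + 16), and differences are RA minus control on that scale.

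**Figure D1:**
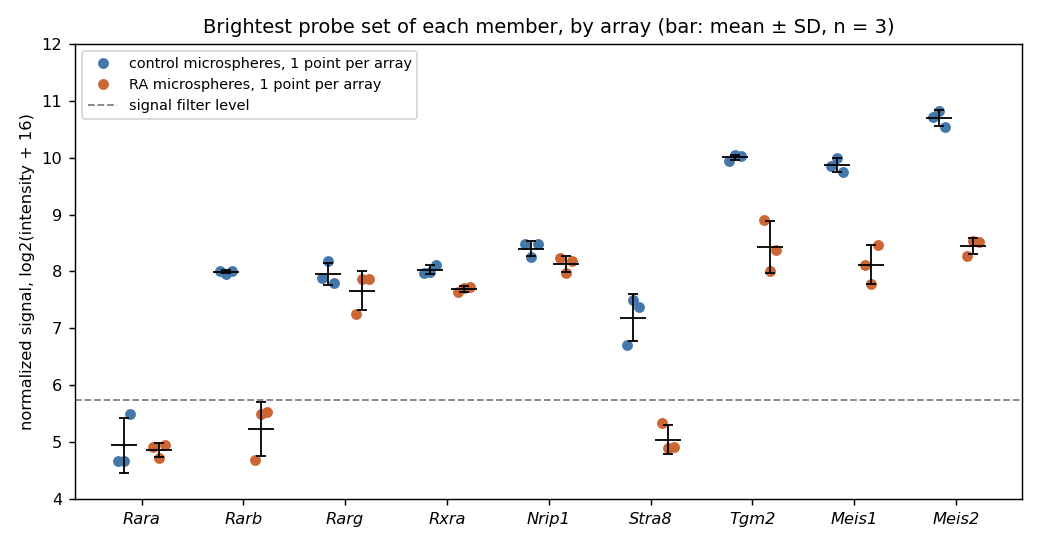
Normalized log2 signal of the brightest probe set of each of the 9 members (x axis) on the 3 control and 3 RA arrays (1 point per array, bars are mean ± SD, n = 3), with the signal filter level of 5.74 as a dashed line. The groups are far apart for Rarb, Stra8, Tgm2, Meis1 and Meis2, close for Rarg, Rxra and Nrip1, and Rara lies below the filter level on every array.

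Bulk arrays cannot tell fewer cells of a type from less RNA per cell, and markers of several cell types differed between the groups here. Of 8 heart muscle markers, 7 were lower with RA, and the summed normalized intensity of the list ran from 12319 to 18462 in controls and from 537 to 669 with RA. Lower were also 4 of 6 blood markers (15375 to 17455 in controls against 489 to 551), all 5 endothelial markers tested of 6 (987 to 1106 against 152 to 342) and 7 of 7 mesenchymal markers (18861 to 21723 against 3428 to 3841). Of 8 markers of epiblast and pluripotent cells, 7 were higher and 1 lower (2187 to 2727 in controls against 12441 to 12867). The lower one and 1 of the higher ones had overlapping arrays and only just passed (limma adjusted p = 0.049 and 0.0499). Of 8 endoderm markers 3 were higher and 5 lower, and of 5 neural markers tested 2 were higher. No marker was listed at 0 on any array. The part of these shifts in the members' levels was not tested.

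Among the receptors, Rarb (RAR beta) was read by a single probe set, 1454906_at. In the order of replicates 1, 2 and 3, as in all lists of values here, the controls had deposited intensities of 262, 250 and 165. The RA arrays had 10.7, 31.5 and 33.3. After normalization these became 8.01, 7.96 and 8.01 in controls, and 4.68, 5.49 and 5.52 with RA. The controls were nearly equal and all RA arrays lay far below them. The RA arrays were under the filter level of 5.74, so the RA level is open to background. Rarb passed the filter only through its controls. The group means were 7.99 ± 0.03 and 5.23 ± 0.47 (SD, n = 3), with a difference of -2.77 ± 0.26 (SE, 95% confidence interval -3.34 to -2.19, limma adjusted p = 1.42e-05).

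RA array 1, with the high Gapdh ratio, had the lowest Rarb value. Without it the difference of Rarb was -2.50, and without it and control array 3 it was -2.54. The differences of the 5 fallen members ran from -2.54 to -1.83 without both arrays, with limma adjusted p of at most 0.00294.

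Rarg (RAR gamma), which encodes another RA receptor, showed no such separation. Probe set 1419415_a_at read 7.88, 8.18 and 7.80 in controls and 7.26, 7.86 and 7.87 with RA. Only RA array 1 lay below all controls. The difference was -0.29 ± 0.19 (limma adjusted p = 0.284), and its 95% confidence interval, -0.71 to 0.13, includes 0. The second Rarg probe set was below the filter, with means of 4.94 and 5.35.

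Rxra (RXR alpha), which encodes a common partner of the RARs, read 7.98, 7.99 and 8.12 in controls and 7.63, 7.71 and 7.72 with RA on probe set 1454773_at. All RA arrays lay below all controls, but the difference of -0.35 ± 0.13 missed the threshold (limma adjusted p = 0.0733). It passed when arrays were scaled to a common trimmed mean (-0.42, limma adjusted p = 0.0341). A second probe set, 1425762_a_at, differed the other way by 0.59 ± 0.36 with overlapping arrays (limma adjusted p = 0.284 over probe sets), and the mean of both gave 0.12. The remaining one lay below the filter.

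Rara (RAR alpha) had a single probe set, 1450180_a_at, and it lay below the filter on every array. Its deposited intensity was 8.26, 10.2 and 20.8 in controls and 15.0, 11.4 and 16.7 with RA. These values overlapped and are near the lower end of the array's range, so no change in Rara could be read from this probe set. It did not enter the main test, and without the filter its difference was -0.08 ± 0.26 (limma adjusted p = 0.873).

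Nrip1 (also called RIP140) encodes a corepressor that binds ligand-bound nuclear receptors, and the gene is itself known as RA-induced. Its brightest probe set, 1434384_at, read 8.48, 8.25 and 8.48 in controls and 8.24, 7.97 and 8.18 with RA. The RA arrays lay just below the controls, by less than the threshold requires (-0.27 ± 0.13, limma adjusted p = 0.145). The other 3 tested probe sets differed by -0.32, -0.13 and -0.14, each with overlapping arrays.

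A further Nrip1 probe set, 1454295_at, went the other way at low signal. Its deposited intensity was 7.97, 5.91 and 7.28 in controls and 41.0, 44.2 and 38.2 with RA. All RA arrays lay above all controls, but the mean over the 6 arrays was under the filter, so it was not part of the main test. Without the filter it passed (1.15 ± 0.24, limma adjusted p = 0.0111 over probe sets), as the only member probe set that was higher. It is named because its values were seen to stand apart.

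Of the induced targets, Stra8, named for its stimulation by RA and required for entry into meiosis in germ cells, was read by 1 probe set. Its deposited intensity was 85.9, 178 and 104 in controls and 24.6, 15.1 and 15.8 with RA. Its normalized levels were 6.71, 7.49 and 7.37 in controls and 5.33, 4.89 and 4.91 with RA. The groups did not overlap, although control array 1 lay below the other controls, and all RA arrays were under the filter level and so open to background. The difference was -2.14 ± 0.30 (SE, limma adjusted p = 0.000267), in a gene that passed the filter only through its controls. The half-sites in its promoter window, shown above, lie 194 and 38 bases before the start, with no DR5 between them.

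Among other genes of meiotic entry, calls were about as frequent as over all genes, so they mark nothing particular to this list. Of 12 such genes, 6 were tested, 1 was higher and 1 lower, with a median difference of 0.20 against 0.01 over all genes. Over all genes tested 14.3% were higher and 15.6% lower, the shares to set beside the counts of this and each later list. Rec8, a meiotic cohesin subunit, fell from 7.01, 6.71 and 7.09 in controls to 5.30, 4.55 and 4.83 with RA. It was 4.12 times lower (limma adjusted p = 0.000457). All its RA arrays were under the filter level and so open to background, and it too passed the filter only through its controls. Sycp3, a structural protein of the meiotic chromosome axis, rose from 6.31, 6.12 and 5.99 to 7.94, 8.10 and 8.15, 3.79 times higher (limma adjusted p = 1.42e-05). Stag3, a cohesin subunit, and Spo11, the enzyme that starts meiotic recombination, differed by 0.69 ± 0.37 and 0.20 ± 0.32 (limma adjusted p = 0.189 and 0.696).

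Tgm2, tissue transglutaminase, cross-links proteins and is induced by RA in many cell types. Its brightest probe set, 1433428_x_at, read 9.95, 10.04 and 10.03 in controls and 8.91, 8.01 and 8.37 with RA. The controls were tightly grouped and the RA arrays were spread over almost a log2 unit, all below them, with RA array 1 the highest. The difference was -1.58 ± 0.18 (SE, limma adjusted p = 5.59e-05).

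The Tgm2 probe sets did not all give this result. Of 6, 5 were tested and 4 were lower, by -1.58, -1.19, -1.34 and -0.89, while 1426004_a_at gave 7.12, 7.11 and 7.04 in controls and 7.14, 7.17 and 7.11 with RA. That probe set differed by 0.05 ± 0.17 (95% confidence interval -0.32 to 0.42), an interval that overlaps none of the other 4. Why this probe set differs was not tested. Among other transglutaminase genes, 4 of 8 were tested. F13a1, coagulation factor XIII subunit A, was 2.85 times lower (limma adjusted p = 0.0204), a call that needed control arrays 2 and 3 and RA arrays 2 and 3, each left out in turn (-1.53, -1.39, -1.07 and -1.37), and the trend in the model (limma adjusted p = 0.0660 without it). Its RA mean of 5.67 was also under the filter level, so it passed the filter only through its controls. Tgm3, Tgm5 and Tgm4 differed by 0.34, 0.43 and 0.04 and did not pass. With the mean of the kept probe sets, Tgm3 passed as higher (0.79, limma adjusted p = 0.0272).

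Meis2 and Meis1 encode homeodomain proteins of the TALE class, which bind DNA together with PBX and HOX proteins. The brightest Meis2 probe set, 1457632_s_at, read 10.72, 10.83 and 10.54 in controls and 8.28, 8.54 and 8.51 with RA. Both groups were tight, far apart and well above the filter. The difference was -2.25 ± 0.11 (SE, limma adjusted p = 6.15e-08). The other Meis2 probe sets differed by -2.01 ± 0.12, -0.94 ± 0.17 and -0.79 ± 0.36. The last, with controls of 7.01, 5.79 and 6.19, did not pass (limma adjusted p = 0.148 over probe sets), although its RA arrays were all below its controls.

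Meis1, on probe set 1450992_a_at, read 9.85, 10.00 and 9.75 in controls and 8.11, 7.78 and 8.46 with RA. The RA arrays lay more than a log2 unit below every control. The difference was -1.75 ± 0.16 (SE, limma adjusted p = 8.76e-06). A second probe set, 1443260_at, was also lower (-1.16 ± 0.28, limma adjusted p = 0.0127 over probe sets), and the third had group means of 5.29 and 5.81 with overlapping arrays and was left out because its mean over all 6 arrays was below the filter. Meis1 lies on chromosome 11, where 320 of 1119 genes were lower and 72 higher and the median difference was -0.20, against 0.00 to 0.09 on the other chromosomes. Relative to that median, the difference of Meis1 was -1.55. Rara is on the same chromosome.

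**Figure D2:**
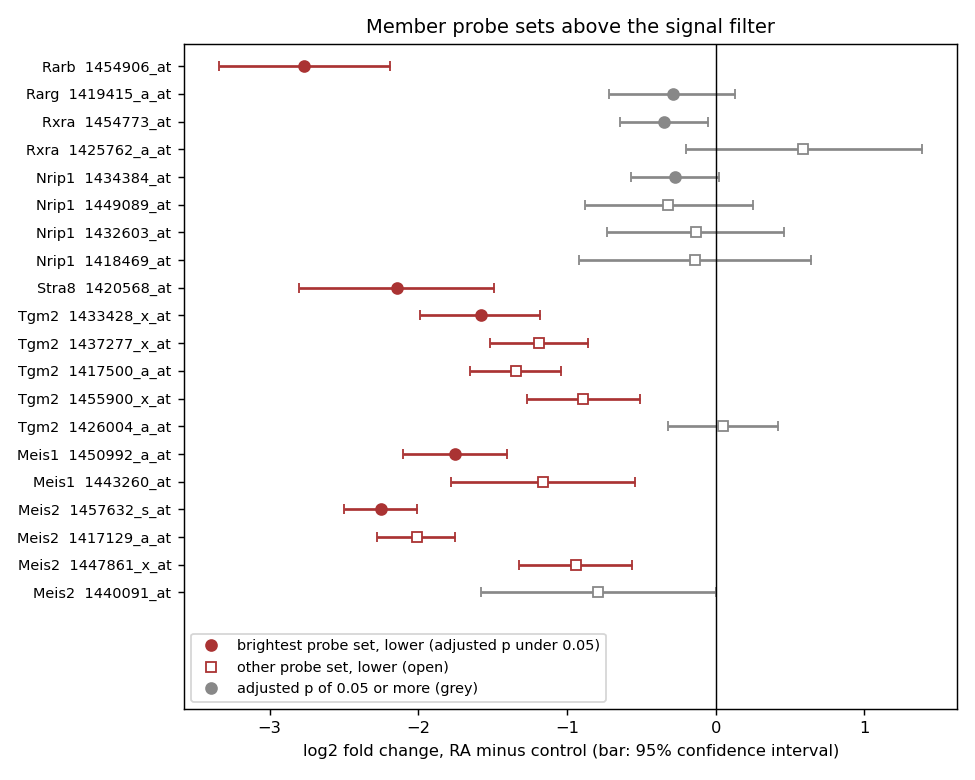
Log2 fold change (RA minus control) with its 95% confidence interval for the 20 member probe sets above the signal filter, filled circles for the brightest probe set of each gene and open squares for the others, red where lower at an adjusted p under 0.05 and grey otherwise. Of these, 11 are lower and 9 did not pass. In Tgm2 one probe set stands at 0.05 beside 4 that are lower, and in Rxra the 2 probe sets lie on opposite sides of 0.

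Over the 27 member probe sets, 20 were tested, 11 were lower, 0 were higher and 9 did not pass, in a limma fit over 27022 probe sets of which 11.1% were lower and 11.3% higher. At an unadjusted limma p under 0.05, 0 member probe sets were higher and 13 lower. No share over all probe sets is given at that threshold, so this last count is not read further. All counts of this paragraph hold with the filter on, as described for Nrip1.

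Among TALE partners of Meis1 and Meis2 the differences were smaller. Of 9 listed genes 8 were tested, 1 was higher and 2 lower, with a median of -0.20. Pbx3 and Pbx2, which encode PBX partners, were 1.54 and 1.63 times lower (limma adjusted p = 5.22e-05 and 0.000250), and neither passed without scaling (-0.20 and -0.36). Tgif1, a repressor that can act on RXR and SMAD target genes, was 1.66 times higher (limma adjusted p = 0.000417). Pknox2, a further TALE gene, differed by -0.49 ± 0.18 and did not pass (limma adjusted p = 0.0561). It passed in 4 alternatives, with limma adjusted p of 0.0341 without RA array 3 (-0.62), 0.0351 with the common trimmed mean (-0.56), 0.0415 with the mean of the probe sets and 0.0467 with the filter at the 60th percentile (-0.49 in both).

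Other nuclear receptors of the list, which can share RXR partners or binding sites with the RARs, went both ways. Of 15, 11 were tested, 1 was higher and 3 lower, with a median of -0.10. The COUP-TF genes Nr2f2 and Nr2f1, orphan receptors known to be RA-induced and to compete for RAR sites, were 2.75 and 2.25 times lower (limma adjusted p = 2.35e-05 and 0.000965). Nr2f2 read 9.57, 9.12 and 9.07 in controls and 7.68, 7.88 and 7.82 with RA. The thyroid hormone receptor gene Thra, on chromosome 11, was 1.69 times lower (limma adjusted p = 0.00621). Nr2f6, a related orphan receptor, was 1.57 times higher (limma adjusted p = 0.0104), a call lost without RA array 3 (0.50). The call of Thra was lost without scaling (-0.48), and both were lost with the mean of the probe sets (-0.52 for Thra and 0.35 for Nr2f6). Rxrb and Rxrg, the other RXR genes, differed by -0.10 ± 0.11 and 0.81 ± 0.33 (limma adjusted p = 0.563 and 0.0848). Rxrg passed without control array 2 (1.06, limma adjusted p = 0.0464) and without scaling (0.99).

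Coregulators, the proteins that receptors recruit, had a median of 0.09. Of 26, 24 were tested, 7 were higher and 2 lower, beside 14.3% higher and 15.6% lower of all genes tested. Lcor, a ligand-dependent corepressor, fell from 9.39, 9.35 and 9.30 to 7.93, 8.01 and 8.04, 2.56 times lower (limma adjusted p = 2.76e-06). The corepressor gene Ctbp2, the histone deacetylase gene Hdac1 and Tbl1xr1, a subunit of a corepressor complex, were 1.61, 1.32 and 1.35 times higher (limma adjusted p = 2.84e-05, 0.00319 and 0.00392). Tbl1xr1 did not pass without scaling or with the mean of its probe sets (0.74 and 0.44). The number of higher coregulators was 3 without scaling, and 4 with the mean of the probe sets, without the trend, or without control array 2, RA array 1 or RA array 3. Only 1 coregulator was lower when arrays were left unscaled, or when control array 2 or RA array 2 was left out.

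The members that fell stood beside a rise of Cyp26a1. Its levels were 7.10, 6.83 and 6.69 in controls and 9.95, 9.99 and 9.76 with RA, 8.14 times higher (limma adjusted p = 3.84e-08). All RA arrays thus lay above all controls for Cyp26a1 and below them for Rarb, the DR5 promoters shown above. Of 31 genes with a DR5 in a promoter window, 8 were tested, 1 was higher (Cyp26a1) and 3 lower. The 3 were Rarb, the embryonic globin gene Hbb-y (88.9 times) and the platelet chemokine gene Ppbp (3.40 times), named after their values were seen. The RA mean of Ppbp, 5.68, was under the filter level, so it passed the filter only through its controls. The remaining 4 did not pass. Of 10940 tested genes with a window but no DR5, 14.5% were higher and 15.7% lower, against 12.5% and 37.5% of these 8. With 8 genes, no difference from those shares can be read.

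Genes of retinoid metabolism and transport also went both ways, with 4 higher and 6 lower of 14 tested out of 17 and a median of -0.27. The retinol carrier gene Rbp4 was 10.5 times lower, the retinol dehydrogenase gene Rdh10 1.98 times and Fabp5, which can carry RA, 1.51 times lower (limma adjusted p at most 7.63e-05). Without scaling, 3 of this list were lower, and Rdh10 and Fabp5 did not pass (-0.70 and -0.22). Of the higher calls, that of Rdh11, a retinol dehydrogenase gene, only just passed (0.40, limma adjusted p = 0.049). It was lost without scaling (0.62), with the common trimmed mean (0.34) and without the filter (0.40), among other alternatives. Of 19 other listed RA-induced targets 12 were tested, 3 were higher and 1 lower, with a median of 0.05. Besides Cyp26a1, Crabp2, an RA-binding protein, and Foxa1, an endoderm and floor plate factor, were 1.71 and 1.66 times higher, and Dhrs3, a retinaldehyde reductase, 2.10 times lower (limma adjusted p = 0.000863, 0.00161 and 0.00380). Without control array 3 or RA array 3, 2 of this list were lower, and without RA array 2, 5 were higher. The lists share members, among them Cyp26a1, Crabp2 and Dhrs3.

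**Figure D3:**
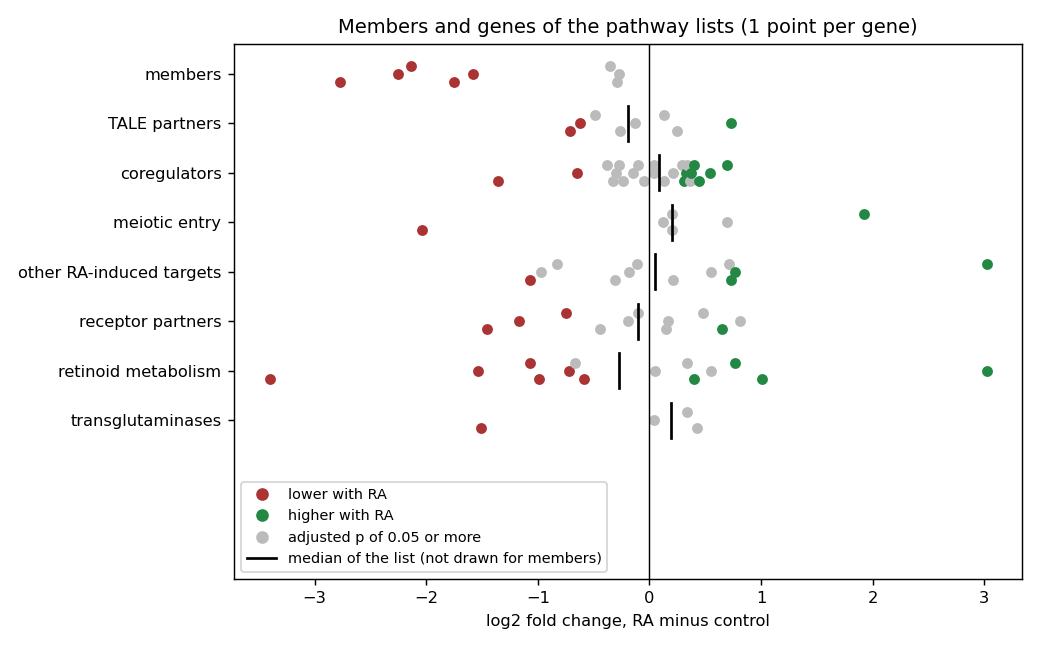
Log2 fold change (RA minus control, x axis) of the 8 members tested and of the genes tested in 7 lists of related genes (1 point per gene), coloured by the call, with a line at each list's median. The lists lie on both sides of 0, with medians from -0.27 to 0.20, and the rise of Cyp26a1 (3.02) and the fall of Rbp4 (-3.40) are at the ends.

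The genes whose arrays were most like those of Rarb were found by the root mean square difference of the levels over the 6 arrays, after taking off each gene's mean. They were 6330403K07Rik, Runx1t1 and Clec1b, at 0.156, 0.184 and 0.185 log2 units. For Meis2 they were Tshz1, Col1a2 and Dsc2, at 0.077, 0.085 and 0.089. All 6 were lower with RA, with differences between -2.73 and -2.13, as this measure requires.

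The direction of the 5 fallen members held in every alternative setting. Rarb ranged from -3.49 to -1.81, Meis2 from -2.36 to -1.50, Stra8 from -2.88 to -1.27, Meis1 from -1.91 to -1.45 and Tgm2 from -1.83 to -0.99. With a pseudocount of 64, Rarb was at -1.81 and Stra8 at -1.27, and with the mean of all kept probe sets Tgm2 was at -0.99 and Meis2 at -1.50. Each kept its limma adjusted p under 0.05, except that Stra8 was not measured with the filter at the 60th percentile.

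**Figure D4:**
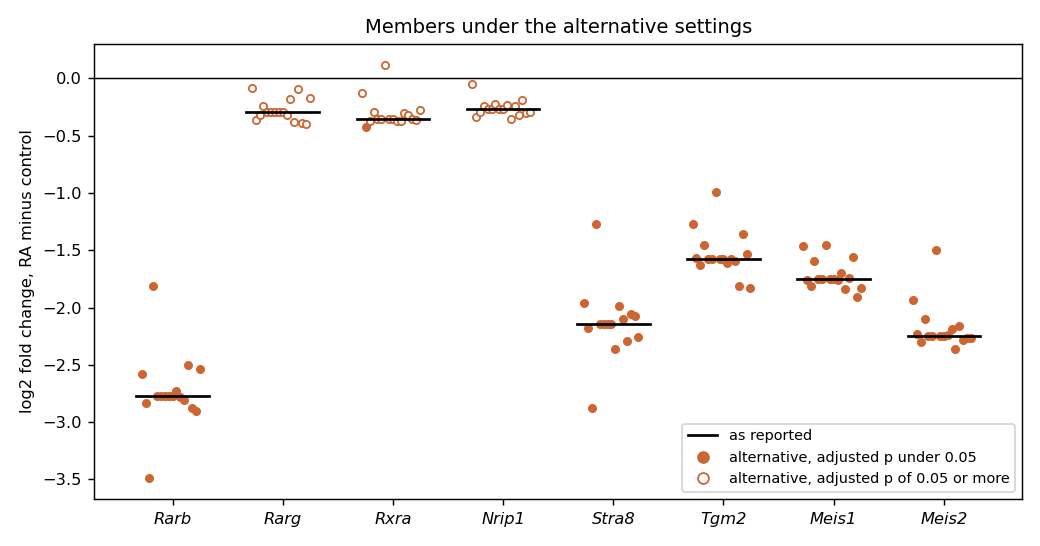
Log2 fold change (RA minus control, y axis) of the 8 members tested, as reported (black lines) and under up to 16 alternative settings of scaling, pseudocount, filter, probe set choice, model and arrays left out (1 point per setting, filled where the adjusted p is under 0.05). Rarb, Stra8, Tgm2, Meis1 and Meis2 are at -0.99 or lower in each setting, and Rarg, Rxra and Nrip1 stay between -0.42 and 0.12.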

How the data were processed

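The deposited values are a linear intensity per probe set, made by the authors with the Affymetrix GCOS software at default settings, per the labels; the version and the signal parameters were not given in the sources used here. Detection calls were not used. The 2% trimmed mean of the signal ran from 108 to 191 between arrays, so log2(intensity + 16) was quantile normalized. The pseudocount of 16 makes fold changes of low signals too small. Control probe sets (64) did not enter. Gene symbols came from the array's annotation table (34945 probe sets have 1 symbol, 932 several and 9160 none). Probe sets with a mean above the 40th percentile (log2 level 5.74) were kept, 27022 in all, and the brightest stood for each gene.

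The test was that of limma 3.58.1 under R 4.3.3, two-sided, 3 arrays against 3, using lmFit, eBayes, a mean-variance trend and no covariates, with Benjamini-Hochberg adjustment over all genes or probe sets. Only 6 arrays limit the precision. On simulated data with 13608 genes, 77% of 100 changes of 1 and 96% of 100 changes of 2 log2 units were recovered. Of the calls there, 5.98% were false. In the real data 30.0% of genes were called, so these rates may not carry over. The members and gene lists were chosen with earlier results of these data known. Named were all members, the 4 smallest p-values of each list, all calls among receptor and TALE partners, and 3 genes most like Rarb and Meis2. Rxrb, Rxrg, Rdh11 and Med1 lie outside this rule and were added after their values were seen. Of 101 list genes other than members, 75 were tested. Alternatives changed the scaling, pseudocount, filter, probe set choice, trend, block and arrays one at a time. A further alternative left out RA array 1 and control array 3 together.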

Additional observations from a re-analysis of the deposited data

How the results depend on the processing

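The count of 5 lower and 0 higher members held in all alternatives but 2: it was 6 lower with a common trimmed mean and 4 with the filter at the 60th percentile, where Stra8 was not measured. Without scaling there were 1745 higher and 653 lower genes (72.8% of calls upward against 47.8%), the median over all genes was 0.26 in place of 0.01, and 8 pathway list genes were lower in place of 15. Without the signal filter, 1 member probe set was higher. With the mean of the kept probe sets, Med1, a coactivator subunit, was 0.44 higher (limma adjusted p = 0.0428) in place of -0.24. Leaving out 1 array at a time gave 1487 to 1815 higher and 1733 to 1928 lower genes. The titles share replicate numbers, which are not said to pair samples, and same-numbered arrays did not deviate together (correlations of deviations from the group means of -0.0853, -0.0139 and -0.0274). With the replicate block, 5 members were lower, 0 were higher, and 1775 and 1949 genes were higher and lower. Probe sets and the filter were kept as chosen on all arrays when arrays, scaling or model were varied. Without detection calls, levels near or under 5.74 cannot be told from background.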
